A study of Mus musculus with 5 samples.

Results

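Mouse embryonic stem (ES) cells carrying a short hairpin RNA (shRNA) against Gldc were compared, gene by gene, with the same cell line carrying a non-targeting control shRNA. Of 24421 genes listed, 11969 reached an FPKM of 1 in at least 1 of these libraries and are described here. FPKM is the number of sequenced fragments of a gene scaled by transcript length and library size, so it can be compared between genes. Of these, 8124 reached an FPKM of 5, and 797 of the 8124 differed at least 2-fold. A rise or a fall below means a difference of at least 2-fold in log2(FPKM + 0.1). There was 1 library per condition, so no spread between replicates exists, no test was possible and every difference is a difference between these libraries.

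The series holds 5 RNA-seq libraries, 3 of them from V6.5, a mouse ES cell line. The NTC library came from V6.5 cells transfected with the non-targeting shRNA, and the shGldc library from V6.5 cells transfected with a Gldc shRNA, the study's Gldc hairpins being cloned in the pLKO vector. Both cultures thus carry a hairpin. ES cells of the study were grown either without feeders, in serum replacement medium with leukaemia inhibitory factor (LIF), or on feeders with serum in its place, and which of these held for the sequenced V6.5 cells is not given in the sources used here. The third library, from untreated V6.5 cells, was quantified in a separately made table, and served to see whether shGldc or NTC was the library that stood apart, as a measure of how far control libraries differ, and as an alternative control. The other libraries, from fibroblasts and induced pluripotent cells, were not used. The shGldc column is headed sh3, while the hairpins named in the study for mouse Gldc are sh1 and sh2, so which hairpin these cells carried is not known. All results rest on 1 hairpin and 1 culture.

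Gldc encodes glycine decarboxylase, the glycine-binding enzyme of the mitochondrial glycine cleavage system, which splits glycine into carbon dioxide, ammonia and a one-carbon unit carried on folate. Amt, Gcsh and Dld encode its other subunits. One-carbon units feed purine, thymidine and methionine synthesis, and mouse ES cells are known for also breaking threonine down to glycine through threonine dehydrogenase (Tdh). ES cells held in LIF are known to be in a naive state, close to the preimplantation epiblast, in which Hox and germ layer genes are normally silent or low.

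The 21-base targets of the mouse Gldc hairpins of the study are shown because they are the named targets of the gene knocked down here. They do not fix where sh3 acts, since the study also used a Gldc hairpin against another part of the transcript in V6.5 cells. In capitals are the 20 bases that both targets share, since the hairpins are shifted by a single base.

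sh1: CCACAGAAATCGCCATTCTAa

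sh2: gCCACAGAAATCGCCATTCTA

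Both lie on the minus strand of chromosome 19 (mm10), sh1 at chr19:30110736-30110756 and sh2 at chr19:30110737-30110757, inside exon 21 of the 25 exons of transcript Gldc-201 and in its coding sequence. Neither was found in a transcript of any other gene.

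Gldc (chr19:30098447-30175429, minus strand) had an FPKM of 74.7 in NTC, 2.07 in shGldc and 59.7 in untreated cells. The shGldc library was thus 36.0-fold below NTC, with a log2 difference of -5.11, and both control libraries lay on the same side. Of the other genes with an FPKM of at least 1 that lie within 500 kb, Ermp1 was 16 in NTC and 16.7 in shGldc and Uhrf2 11.1 and 9.55, which is within 2-fold. The exceptions were Mlana, at 3.61 and 7.38, and Dkk1, which is described with the Wnt genes.

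Against NTC the knockdown library held more rises than falls, and against untreated cells fewer. At an FPKM of 1 or more, 8.97% rose (1074 genes) and 7.68% fell (919), 16.7% in all. Among those with an FPKM of at least 5, 5.85% rose (475) and 3.96% fell (322), 9.81% in all. With untreated cells in place of NTC, 684 of 8414 genes (8.13%) were at least 2-fold higher in shGldc and 807 (9.59%) lower. The shares against NTC are the background for every gene group below. A gene that passes the filter only through its shGldc value had to be higher there, so counts of rises are partly fixed by the filter, and the groups with more rises than falls are also counted over members with an FPKM of at least 1 in NTC. Of all such genes, 4.93% rose and 8.17% fell (554 and 919 of 11246). The median log2 difference over the 11969 genes was 0.04, and 52.8% of them were above NTC and 47.2% below it by any amount. Most differences were small: 125 genes rose and 68 fell at least 4-fold, 53 and 15 at least 8-fold, and 21 and 5 at least 16-fold. They were also more common among weakly expressed genes, with 9.72% rising at an FPKM of 5 to 10 and 2.39% at 100 or more.

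How far control libraries differ from each other sets the scale. NTC against untreated cells, across the separately made tables, gave 279 genes higher and 511 lower at least 2-fold of 8192 with an FPKM of at least 5, that is 3.41% and 6.24%. The total was close to that of the knockdown against NTC, and 57 genes were at least 4-fold higher in NTC and 81 at least 4-fold lower. Differences of 2-fold were thus as common between the control libraries as between shGldc and NTC. Of the 475 genes that rose, 430 (90.5%) were also above untreated cells, and 284 (59.8%) by at least 2-fold. Of the 322 that fell, 299 (92.9%) were also below untreated cells, and 230 (71.4%) by at least 2-fold. These comparisons share the shGldc library, so they say only which library stood apart. For 45 rises and 23 falls shGldc was level with untreated cells or lay between them and NTC.

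**Figure D1:**
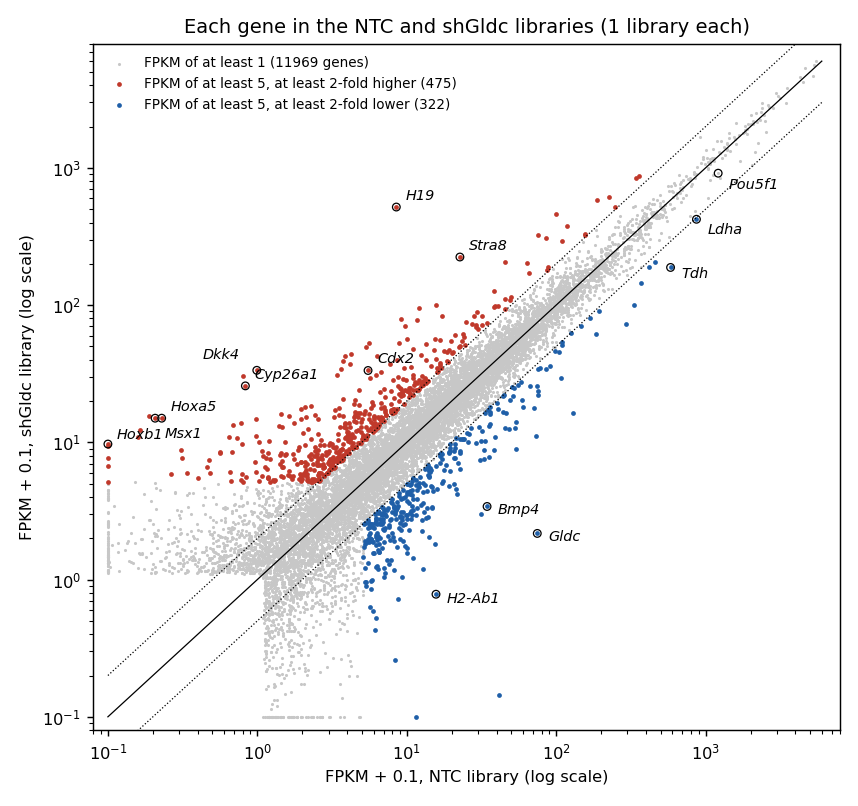
FPKM + 0.1 of each gene in the NTC library (horizontal, log scale) and the shGldc library (vertical, log scale), 1 library each. The solid line marks equal values and the dotted lines 2-fold differences; red and blue points are the 475 rises and 322 falls at an FPKM of 5 or more, and the named points show Gldc far below the line and H19, Stra8, Dkk4, Cyp26a1 and Hox genes far above it.

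Among the protein-coding genes, the largest rise was in Hoxb1. Of the 15 largest, 4 were Hox genes (Hoxb1, Hoxb2, Hoxb8 and Hoxa5), 3 handle retinoids (Cyp26a1, Dhrs3 and Stra6), 3 encode other developmental transcription factors (Msx1, Tlx2 and Gcm1) and 1 a secreted Wnt antagonist (Dkk4). Pmp22, a myelin and epithelial junction protein, had FPKM of 0.0878 in NTC, 15.4 in shGldc and 0.989 in untreated cells, a rise of 6.37 in log2. Fgfbp3, a carrier of fibroblast growth factors, had 0.705, 30.1 and 0.989. Tlx2, a homeobox gene of the early mesoderm and enteric neurons, had 0.68, 13.7 and 0.355. In each of these the 2 control libraries were low and shGldc was the only library above an FPKM of 1. Gcm1, a trophoblast transcription factor, was listed at 0 in NTC, at 5.05 in shGldc and at 0.936 in untreated cells. Aqp8, a water channel, went from 0.372 to 7.29 with 0.164 in untreated cells, and Oasl2, an interferon-inducible gene, from 0.165 to 5.82 with 0.928.

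The largest falls were a less uniform set. After Gldc came H2-Ab1, a class II histocompatibility chain, with an FPKM of 15.6 in NTC, 0.682 in shGldc and 6.83 in untreated cells. Pou2f3, a POU domain factor of epidermal and chemosensory cells, had 6.07, 0.331 and 1.43, and Pmel, a melanosome matrix protein, 31.1, 2.89 and 6.06. For these 3 genes NTC was also well above untreated cells, so part of the ratio lies in the NTC level. Myh14, a non-muscle myosin heavy chain, behaved otherwise, at 12.7, 1.1 and 14.8. So did Bdh2, a cytosolic dehydrogenase of hydroxybutyrate type, at 9.24, 0.948 and 9.43, Ppm1j, a protein phosphatase, at 15.4, 1.71 and 34.5, and Clip3, a microtubule linker protein, at 8.13, 1.07 and 12.5. In these 4 shGldc was below both control libraries, which lay within 2-fold of each other for Myh14, Bdh2 and Clip3, while Ppm1j was over 2-fold higher in untreated cells than in NTC. Pars2, the mitochondrial prolyl-tRNA synthetase, fell from 5.84 to 0.487 with 4.16 in untreated cells. Oaz1, the antizyme that lowers polyamine synthesis, fell from 129.7 to 16.3 with 53.3 in untreated cells, and 21% of its transcripts' 50-nt stretches also occur in transcripts of other genes. The remaining members of the 15 were Bmp4, Klk8, Prelid2, Spn and Camkv, with log2 differences between -3.34 and -2.74.

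The threshold itself separates nothing natural. Spryd7, at 5.22 in NTC and 10.5 in shGldc, was just counted as a rise and Herpud1, at 8.25 and 16.6, just not. Rhebl1, at 43.7 and 21.7, was just counted as a fall and Pfkp, at 21.9 and 10.9, just not.

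**Figure D2:**
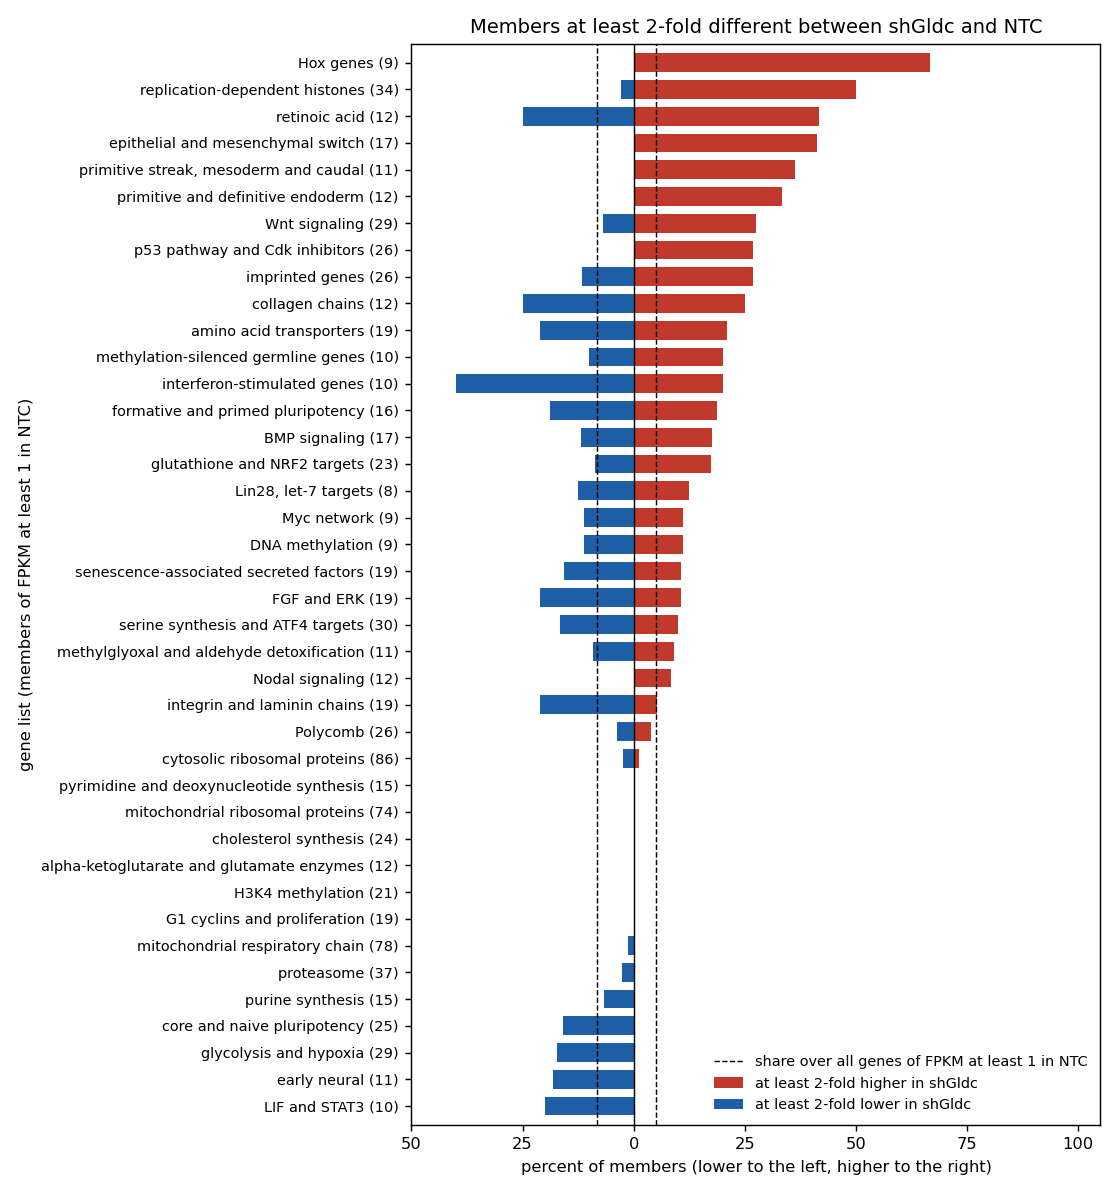
Share of the members of each gene list with an FPKM of at least 1 in NTC (number in brackets; lists of 8 or more, small RNA entries left out) that were at least 2-fold higher (red, right) or lower (blue, left) in shGldc than in NTC, in percent. The dashed lines mark the shares over all such genes, 4.93% higher and 8.17% lower, and the Hox (6 of 9), replication-dependent histone (17 of 34) and retinoic acid (5 of 12) lists reach farthest to the right.

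Most of the Hox genes used rose. They encode the homeodomain factors that specify position along the head to tail axis, lie in 4 clusters, and are silent in naive ES cells. Of 39 Hox genes listed, 8 had an FPKM of at least 1 in NTC, 7 in untreated cells and 24 in shGldc. Of the 24, 21 rose and none fell, with a median log2 difference of 3.16, and most of them passed the filter only through shGldc. Of the 8 with an FPKM of at least 1 in NTC 5 rose and none fell, 3 of 3 in HoxA, 1 of 2 in HoxB, none of 1 in HoxC and 1 of 2 in HoxD. Over all used genes, the counts were 9 of 9 in HoxA, 9 of 10 in HoxB, 2 of 3 in HoxC and 1 of 2 in HoxD. Summed over a cluster, HoxA went from an FPKM of 8.65 in NTC to 81.8 in shGldc with 9.59 in untreated cells, and HoxB from 5.83 to 58.7 with 10.2. The HoxC sum went from 4.35 to 9.74 and the HoxD sum from 4.48 to 6.99, which is under 2-fold.

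Single Hox genes rose from low levels. Hoxb1, an early hindbrain gene (chr11:96365752-96368256, plus strand), was listed at 0 in NTC, 9.62 in shGldc and 0.124 in untreated cells. Hoxa5 had 0.129, 14.9 and 1.28 and Hoxa7 1.97, 18.1 and 0.604. All 3 were low in both control libraries. More posterior members rose too: Hoxb8 from a value listed at 0 to 6.66, Hoxb9 from 1.07 to 8.23, and Hoxa9 from 0.508 to 3.18. Those that did not pass the threshold were Hoxb13, at 4.2 and 4.16, Hoxc13, at 2.41 and 3.01, and Hoxd1, at 2.08 and 1.17. The cofactors that bind DNA together with Hox proteins rose as well, Meis1 from 0.25 to 1.82, Meis2 from 0.984 to 4.42 and Pbx3 from 2.1 to 4.39. With cofactors, 24 of 27 used list members rose and the median was 3.13; over the 9 with an FPKM of at least 1 in NTC 6 rose and none fell. In NTC 13 Hox genes were listed at 0, and for those the log2 difference depends on the pseudocount and is no bound. Hoxa5, Hoxb8 and Hoxb9 have no exon overlapping another gene, whereas 27.3% of the exonic bases of Hoxb2 and 52.9% of those of Hoxb3 overlap Hoxb3os, so their reads cannot be told apart from it.

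Known targets of retinoic acid rose, whereas genes of its synthesis and transport moved both ways. Retinoic acid is made from vitamin A, acts through Rar and Rxr receptors, and drives differentiation of ES cells in culture; Hoxb1, Stra8 and Cyp26a1 are known targets. Of 18 members used, 11 rose and 3 fell, and the median log2 difference was 2.04. Of the 12 with an FPKM of at least 1 in NTC, 5 rose and 3 fell. All 4 members listed as targets rose, 2 of them from an FPKM of at least 1 in NTC. Of 8 synthesis and transport members 5 rose and 3 fell, and of the 6 with an FPKM of at least 1 in NTC 3 rose and 3 fell. Cyp26a1, the enzyme that degrades retinoic acid, had an FPKM of 0.732 in NTC, 25.7 in shGldc and 0.631 in untreated cells, a 35.1-fold rise. Stra6, the cell surface receptor for retinol carrier protein, had 0.549, 10.8 and 0.567. Dhrs3, a retinal reductase, had 0.214, 7.64 and 0.96. In all 3 both control libraries were under an FPKM of 1, far below shGldc, and the genes passed the filter only through shGldc. Stra8, a meiosis gene named for its response to retinoic acid, was expressed in all libraries and went from 22.6 to 224.1 with 52.5 in untreated cells.

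Not every step of the pathway moved the same way. Crabp1, which binds retinoic acid in the cytosol, fell from 71.3 to 17.7 with 110.4 in untreated cells, while its relative Crabp2 was 2.52 in NTC, 9.39 in shGldc and 12.2 in untreated cells, so there NTC stood apart. Aldh1a2, the dehydrogenase that makes retinoic acid, fell from 3.6 to 1.15 with 1.31 in untreated cells, and Rbp4, the serum retinol carrier, from 3.52 to 0.609 with 3.94. Of the receptors, Rarg was 63.9 and 48.8, Rara 13.2 and 11.0, Rxrb 38.8 and 47.0, and Rxra 9.59 and 9.57, all within 2-fold. Rarb, itself a target, rose from 0.0972 to 1.09 with 0.166 in untreated cells, and 38.4% of its exonic bases overlap other genes.

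The promoter of Cyp26a1 is shown because its gene, which encodes the enzyme that degrades retinoic acid, had the largest rise of the retinoic acid list after Hoxb1. Retinoic acid receptors are known to bind direct repeats of a 6-base motif, searched here as AGNTCA, any 5 bases, AGNTCA, on both strands of the window from 250 bases before to 50 after each start in RefSeq (GRCm38.p6). In capitals is the 1 match, on the minus strand, between 32 and 16 bases before the start, in a stretch of 82 bases at chr19:37697726-37697807 (plus strand).

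Cyp26a1: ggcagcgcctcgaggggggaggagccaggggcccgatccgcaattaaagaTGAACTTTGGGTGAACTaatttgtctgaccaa

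Of 32851 promoter windows, 67 (0.204%) held such a repeat. Of the 14 retinoic acid list members with a window, Cyp26a1 alone held it, and of the 14 Hox list members with a window none did. A spacing of 2 or 1 bases between the repeats gave no match in either list. A match is a description of the letters, and no match says nothing of sites elsewhere.

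**Figure D3:**
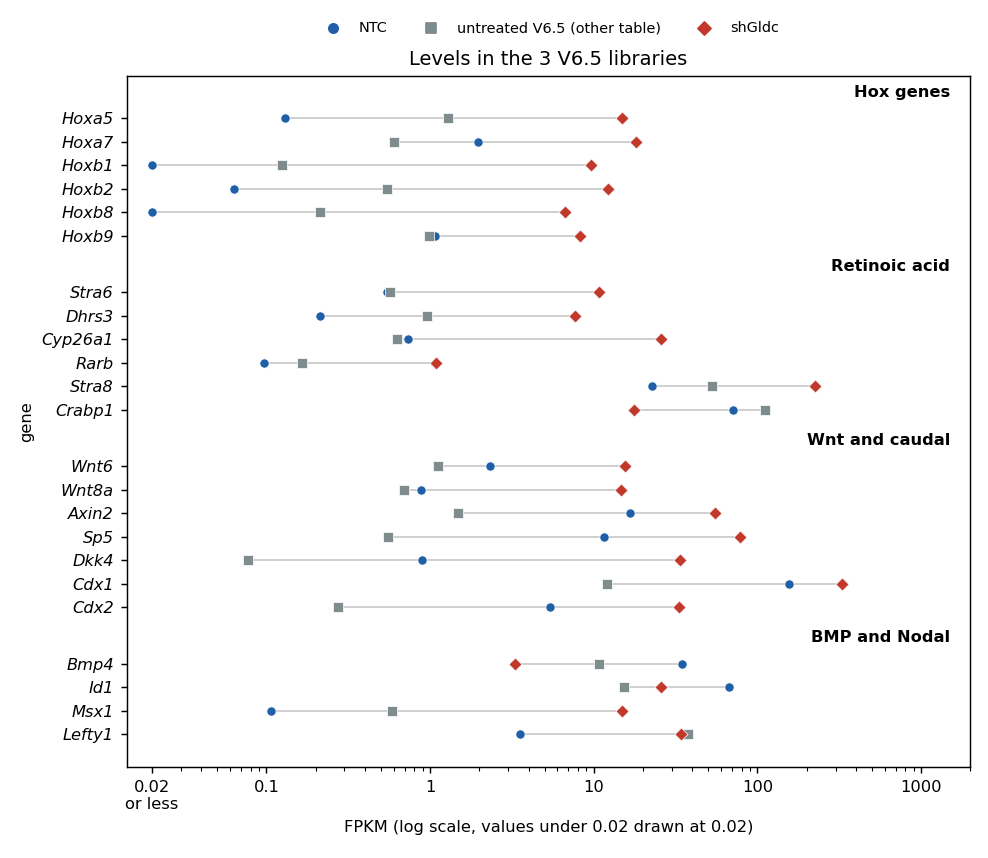
FPKM (horizontal, log scale; values under 0.02 drawn at 0.02) of the named genes in NTC (blue circles), untreated V6.5 cells of the separately made table (grey squares) and shGldc (red diamonds), 1 library each. Hox and most retinoic acid genes lie low in both control libraries, whereas for Sp5, Axin2, Cdx1 and Cdx2 the NTC value lies between untreated cells and shGldc, and for Lefty1 NTC alone is low.

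Several Wnt ligands, antagonists and targets and the caudal genes rose in shGldc, and for many of them NTC was already above untreated cells. The canonical Wnt pathway stabilises beta-catenin, supports self-renewal of ES cells, and induces its own inhibitors. Of 35 Wnt members used, 13 rose and 2 fell, with a median of 0.39, and of the 29 with an FPKM of at least 1 in NTC 8 rose and 2 fell. By role, rises among the 29 were 1 of 4 ligands, 2 of 9 receptors, 1 of 7 antagonists and 4 of 9 effectors and targets. The falls were 1 receptor and 1 antagonist. The other rises of ligands and antagonists, such as Wnt8a, Dkk4 and Dkk1, passed the filter only through shGldc. Among ligands, Wnt8a rose from an FPKM of 0.883 to 14.6 with 0.696 in untreated cells, and Wnt6 from 2.32 to 15.6 with 1.11. Of the receptors, Fzd10 rose from 13.3 to 51.6 with 7.19 in untreated cells and Fzd5 fell from 17.7 to 6.21 with 9.11. The antagonist Dkk4 rose from 0.892 to 33.4 with 0.0772 in untreated cells. Its relative Dkk1 (chr19:30545863-30549665, minus strand), within 500 kb of Gldc, was listed at 0 in NTC, 4.97 in shGldc and 0.036 in untreated cells. Sfrp1, a secreted antagonist of another family, fell from 14.5 to 4.7 with 21.8 in untreated cells.

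Of 9 effectors and targets of the pathway 4 rose and none fell. Axin2, a scaffold of the beta-catenin destruction complex and a standard target, had 16.6 in NTC, 55.4 in shGldc and 1.49 in untreated cells. Sp5, a zinc finger target, had 11.6, 77.8 and 0.554. Lef1, a partner of beta-catenin, had 1.11, 5.01 and 1.16. Axin2 and Sp5 thus differed by more between NTC and untreated cells than between shGldc and NTC. Ctnnb1, which encodes beta-catenin, was 148.6 and 175.1, and Tcf7l1, a repressor of the pathway, 52.7 and 63.8.

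The caudal genes, targets of Wnt signalling that activate Hox genes in the tail bud, followed the same order. Cdx1 had an FPKM of 156.8 in NTC, 328.1 in shGldc and 12.1 in untreated cells. Cdx2, which also specifies trophoblast, had 5.41, 33.3 and 0.274, and Cdx4 0.179, 1.77 and a value listed at 0. Over the primitive streak, mesoderm and caudal list, 7 of 14 used members rose and none fell, with a median of 0.93, and of the 11 with an FPKM of at least 1 in NTC 4 rose. The factors that define the streak itself did not pass the threshold against NTC: T (brachyury) was 4.33 in NTC, 5.08 in shGldc and 0.425 in untreated cells, Eomes 7.97, 10.1 and 5.48, and Mixl1 1.36, 1.23 and 0.234. For T and Mixl1 both hairpin libraries were thus over 2-fold above untreated cells. Snai1, a repressor of E-cadherin, rose from 3.22 to 17.1 with 2.74 in untreated cells. A bulk library cannot tell whether a few cells express such genes strongly or all cells express them weakly, and fewer cells of a type cannot be told apart from less RNA per cell.

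BMP, Nodal and FGF genes moved in both directions. Bone morphogenetic protein 4 sustains Id genes in ES cells. Bmp4 (chr14:46383520-46390669, minus strand) had an FPKM of 34.4 in NTC, 3.31 in shGldc and 10.7 in untreated cells, the largest fall of the BMP list. Its target Id1 had 67.0, 25.6 and 15.2 and Id3 97.7, 49.7 and 14.1. Id1 fell against NTC and Id3 was just inside 2-fold, but for both shGldc lay above untreated cells. The homeobox gene Msx1, a BMP target elsewhere in the embryo, rose from 0.107 to 14.9 with 0.587 in untreated cells, and Msx2 from 2.94 to 9.42 with 0.978. Smad6, an inhibitor, was 3.73, 12.8 and 11.0, so that NTC alone was low. In all, 4 of 19 BMP members rose and 2 fell, with a median of -0.12, and of the 17 with an FPKM of at least 1 in NTC 3 rose and 2 fell. All 6 receptors and Smads used, such as Bmpr1a, at 4.22 and 5.47, and Smad1, at 5.65 and 9.58, were within 2-fold.

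In the Nodal list 2 of 14 members rose and none fell, and of the 12 with an FPKM of at least 1 in NTC 1 rose. Nodal was 36.1 in NTC and 46.2 in shGldc and its cofactor Foxh1 51.6 and 52.9. The antagonist Lefty1, which rose, was 3.54, 34.3 and 37.8 in NTC, shGldc and untreated cells. Lefty1 thus had the untreated level in shGldc and a low level in NTC. In the FGF and ERK list 3 of 20 rose and 4 fell, with a median of -0.34. Fgf4, the main FGF of ES cells, had 59.9, 18 and 101.8. Ier3, an early response gene, had 12.5, 2.61 and 27.5. In both, shGldc was below both controls. Spry4, a feedback inhibitor, had 45.4, 12.6 and 11.0 and Etv4, a target, 109.0, 53.9 and 51.1, so that NTC was the high library, while Dusp6 was 17.4 and 16.3. Of 12 LIF pathway genes 1 rose and 2 fell. Lifr, the receptor, fell from 2.41 to 0.716 with 2.15 in untreated cells, Socs3, its feedback inhibitor, from 98.8 to 45.9 with 85.7, and Lif itself rose from 0.682 to 5.24 with 2.05, while Stat3 was 32.3 and 34.0.

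Core pluripotency genes stayed within 2-fold and a few naive genes fell. In the list of core and naive genes, which holds the markers of the cell line, none of 25 members rose and 4 fell, with a median of -0.43. Of the 25, 19 were below NTC by some amount, against 47.2% of all genes used, and these included all 5 core genes and 10 of 13 naive factors. Those that fell were Tcl1, a kinase coactivator of ES cells, from 38.3 to 8.76 with 53.3 in untreated cells, Nr0b1, an orphan receptor, from 40.2 to 19.3 with 37.7, Fgf4, and Gbx2, from 50.6 to 25.1. For Gbx2 untreated cells were lower still, at 15.4, and 43.5% of its exonic bases overlap another gene. In shGldc the FPKM was 914.9 for Pou5f1, 130.4 for Sox2 and 222.9 for Nanog, against 1215.0, 223.0 and 249.5 in NTC. Among naive factors within 2-fold, Esrrb was 207.9 in NTC, 126.6 in shGldc and 148.7 in untreated cells and Zfp42 150.3, 123.5 and 149.5. Klf2, at 386.6, 398.1 and 186.7, and Tbx3, at 56.1, 64 and 19.9, were close to equal in NTC and shGldc and lower in untreated cells. Of the formative and primed list, 4 of 17 members rose and 3 fell, and of the 16 with an FPKM of at least 1 in NTC 3 rose and 3 fell. Pou3f1, a POU domain factor of the epiblast after implantation, fell from 7.02 to 1.01 with 9.3 in untreated cells, and Tcf15, a marker of cells about to leave the naive state, from 75.9 to 22 with 231.4. Fgf5, the classic marker of the primed epiblast, was listed at 0 in both libraries. Otx2 was 0.592 in NTC and 0.549 in shGldc against 11.5 in untreated cells.

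Some endoderm factors and the simple keratins rose. Gata6 and Gata4 specify primitive endoderm, the extraembryonic layer beside the epiblast. Gata6 had 0.462 in NTC, 8.22 in shGldc and 0.646 in untreated cells, and Gata4 2.38, 7.84 and 3.52. Sox17, at 0.16 and 0.656, and Foxa2, at 0.0291 and 0.316, stayed under an FPKM of 1 in both. Of 11 effectors 5 rose, and 2 of the 8 with an FPKM of at least 1 in NTC, both being the basement membrane collagens Col4a1, from 10.2 to 24.9, and Col4a2, from 6.67 to 14.5, while Srgn, a proteoglycan core, rose from 0.183 to 4.27. In all, 10 of 18 endoderm members rose and none fell, with a median of 1.15 that was 0.36 without members that overlap or share sequence with other genes, and of the 12 with an FPKM of at least 1 in NTC 4 rose, 2 of 4 factors among them. The 7 primitive endoderm markers summed to an FPKM of 4.25 in NTC, 21.6 in shGldc and 6.88 in untreated cells, and the part of endoderm-like cells in these rises was not tested. Krt8 and Krt18, the keratin pair of simple epithelia, rose from 9.09 to 79.4 and from 11.9 to 95.4, with 9.98 and 20.8 in untreated cells, and Krt19 from 1.36 to 12.8 with 4.81. Krt8 shares 26.9% of its transcripts' 50-nt stretches with other genes. Cdh1 (E-cadherin) was 89.7 and 79.4 and Epcam 37.7 and 49.9, within 2-fold. Over the epithelial and mesenchymal list 7 of 17 members, all 17 with an FPKM of at least 1 in NTC, rose and none fell, with a median of 0.77. Against untreated cells that median was -0.02. Cldn6 and Cldn7, claudins of tight junctions, were 20.0 and 5.95 in NTC, 44.4 and 15.2 in shGldc, and 60.9 and 27.3 in untreated cells.

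Trophoblast genes moved both ways and early neural genes were mostly lower. Of 8 trophoblast members 3 rose and 2 fell, and of the 6 with an FPKM of at least 1 in NTC 1 rose and 2 fell. Among those that changed were Krt7, from 0.574 to 3.08, and Phlda2, from 35.9 to 13.5, while Elf5 was near 0 in every library. The summed trophoblast markers, 6.08 in NTC, 35.5 in shGldc and 3.83 in untreated cells, are nearly all Cdx2 in the first pair. The list's median was 0.67 against NTC and -0.46 against untreated cells. Of 11 early neural members 10 were below NTC by some amount, against 47.2% of all genes used, with a median of -0.3; none rose and 2 fell, Olig2, from 15.5 to 6.62 with 6.54 in untreated cells, and En2, from 4.49 to 2.16. Pax6 was under an FPKM of 1 in NTC and shGldc, and Sox1 was 1.43 and 1.15.

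Genes of the 2-cell-like state rose, most of them from an FPKM under 1 in NTC. A small share of ES cells at any time expresses genes of the embryo at the 2-cell stage, such as the Zscan4 family. Of 18 members listed 14 were used and 14 rose, with a median of 3.56, but 3 of them (Pramel6, Pramel7 and Tmem92) had an FPKM of at least 1 in NTC and the others passed the filter only through shGldc. The summed FPKM of the list went from 11.5 in NTC to 98.2 in shGldc with 28.3 in untreated cells. Tmem92 had 1.34, 16 and 1.99, and Pramel6 4.46, 12 and 0.118. Zscan4f had 0.589, 13.2 and 4.89 and Zscan4c 0.694, 9.71 and 4.13. Untreated cells lay between the others for the Zscan4 genes, and nearest to NTC for Tmem92. Between 49.6% and 90.1% of the 50-nt stretches in the transcripts of Zscan4b, Zscan4c, Zscan4d and Zscan4f recur in other genes, so their reads may be shared among copies and the single values are uncertain. Zfp352 stayed under an FPKM of 1. Members with little shared sequence had a median of 2.57. Of 12 used germline genes normally silenced by DNA methylation, 4 rose and 1 fell, and of the 10 with an FPKM of at least 1 in NTC 2 rose and 1 fell. The list's median was 0.49 against NTC and -0.57 against untreated cells. Dazl, an RNA-binding protein of germ cells, had 3.66, 15.5 and 3.41 and Taf7l 0.299, 5.44 and 1.31, whereas Ddx4 was 1.89 and 1.82, and Stag3, a meiotic cohesin, fell from 4.6 to 0.846.

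Among imprinted genes the long non-coding RNA H19 rose most. H19 (chr7:142575529-142578143, minus strand), expressed from the maternal copy beside Igf2, had an FPKM of 8.42 in NTC, 518.5 in shGldc and 47.7 in untreated cells. NTC was thus below untreated cells and shGldc above both. Igf2, which shares the locus, was 0.826, 1.28 and 3.87, and 61.2% of its transcripts' stretches are shared with other genes. Of 15 paternally expressed genes used, 6 rose and none fell, with a median of 0.9, all 6 being among the 14 with an FPKM of at least 1 in NTC, and of 12 maternally expressed genes 1 rose and 3 fell, with a median of -0.32. Peg10 had 45.7, 110.4 and 14.5, Peg3, a zinc finger gene, 5.63, 14 and 2.99, and Sgce 2.7, 9.42 and 3.77. Meg3 was 3.01 and 2.08. Which parental copy was read cannot be told from gene-level values.

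Of the 6 genes of glycine cleavage and threonine breakdown, Gldc and Tdh fell and none rose. Amt was 75.7 in NTC and 72.3 in shGldc, Dld 16.1 and 19.3, and Gcsh, the lipoic acid carrier protein, 204.7 and 128.1. Tdh had 583.3, 188.1 and 172.0 in NTC, shGldc and untreated cells, so shGldc had the untreated level. Gcat, which follows Tdh in threonine breakdown, was 55.4 and 30.4. The serine synthesis genes Phgdh, at 179.8 and 154.1, Psat1, at 120.3 and 88.9, and Psph, at 43.4 and 32.8, were lower by less than 2-fold. All 15 purine synthesis genes used were lower in shGldc than in NTC by some amount, against 47.2% of all genes used, with a median of -0.41, but Adssl1 alone passed the threshold, from 3.75 to 0.816. Against untreated cells Pfas, at 30.1 in shGldc and 24.2 in untreated cells, and Impdh1, at 62.5 and 42.5, were higher in shGldc. The other purine genes were lower there too. Gart, which catalyses 3 steps of the pathway and uses one-carbon folate, was 324.2, 190.2 and 292.3, and Atic, which uses it too, 135.8, 102.4 and 106.8. In the pyrimidine and deoxynucleotide list none of 15 rose or fell; Tyms, which uses one-carbon folate to make thymidylate, was 14.8 and 21.5. The glyoxalases Glo1, at 59.1 and 57.2, and Hagh, at 36.0 and 32.3, which clear methylglyoxal, were close to equal, and of the 11 members of their list 1 rose, Akr1b10, and 1 fell, Akr1b8, from 22.5 to 6.26.

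Glycolytic genes were lower in shGldc. Naive ES cells run glycolysis at a high rate. Of 29 members used of the glycolysis and hypoxia list, 24 were lower than in NTC by some amount, against 47.2% of all genes used. By at least 2-fold, 5 were lower and none higher, and the list median was -0.69. For the 18 enzymes alone, 16 were lower by some amount and the median was -0.75. Ldha, which makes lactate, had an FPKM of 869.5 in NTC, 422.3 in shGldc and 549.2 in untreated cells. The lactate exporter Slc16a3 had 53.7, 14 and 41.6, Hk1, a hexokinase, 25.5, 10.0 and 58.2, Aldoc, an aldolase, 6.52, 1.91 and 14.6, and Eno2, an enolase, 1.64, 0.587 and 6.13. In all 5 shGldc was below both controls. Other abundant enzymes were lower by less than 2-fold: Eno1 was 2062.0, 1049.4 and 1976.5, Pkm 2148.3, 1309.1 and 1731.0, and Aldoa 1031.8, 600.4 and 1344.7. Gapdh went the other way, with a log2 difference of 0.46, the highest of the enzymes. Eno1 and Pkm share 26% and 25.8% of their stretches with transcripts of other genes. The glucose transporters Slc2a1, at 259.8 and 239.7, and Slc2a3, at 497.3 and 556.7, were close to equal. Of 78 respiratory chain subunits none rose and 1 fell, with a median of 0.14.

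**Figure D4:**
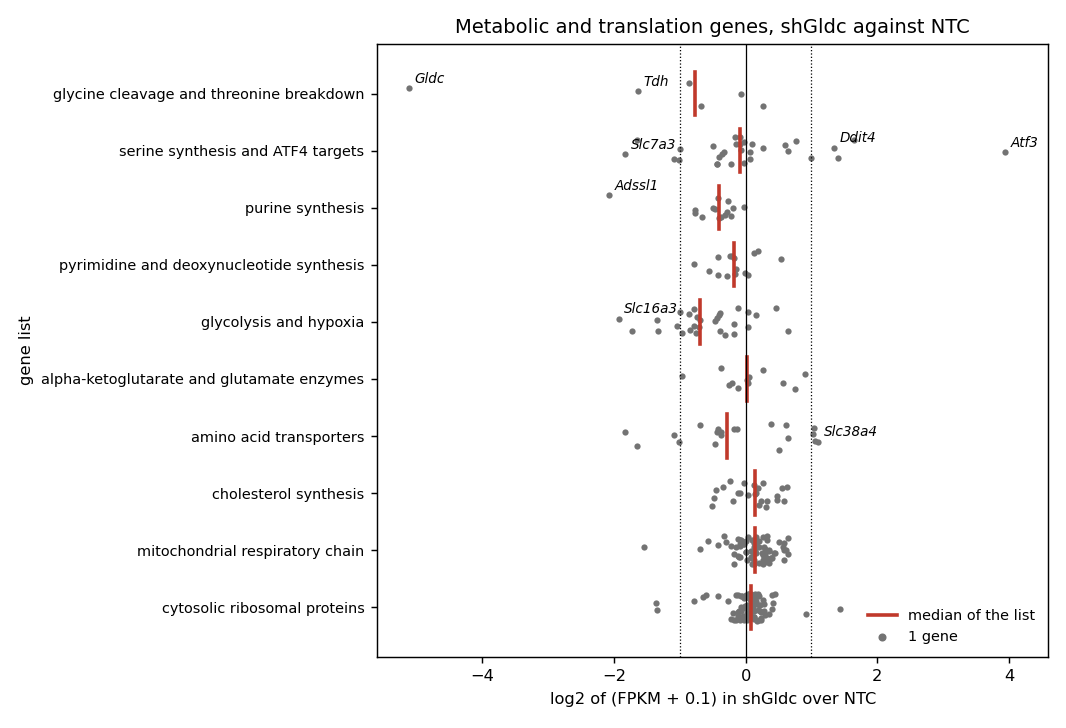
Log2 of (FPKM + 0.1) in shGldc over NTC (horizontal) for each gene with an FPKM of at least 1 in 10 metabolic and translation lists, 1 library each; points are genes, spread vertically only to be seen, and red bars are list medians. Glycolysis and hypoxia (median -0.69) and purine synthesis (-0.41) lie left of 0, the respiratory chain (0.14) and ribosomal proteins (0.07) close to it.

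Amino acid and stress genes moved both ways. ATF4 is the factor that answers amino acid shortage by inducing transporters, serine synthesis and tRNA synthetases. Atf4 mRNA was 143.2 in NTC and 128.0 in shGldc, and of 31 members of its list 4 rose and 5 fell, with a median of -0.08. The arginine and lysine transporters Slc7a3 and Slc7a1 fell, from 38.8 to 10.9 and from 22 to 6.93, with 18.8 and 10.8 in untreated cells. The leucine transporter Slc7a5 fell from 193.2 to 90.9 with 146.1 in untreated cells. Ddit3, a stress factor that can trigger apoptosis, rose from 4.08 to 12.9 with 9.48, Atf5 from 9.06 to 24.2 with 7.35, and Ddit4, an inhibitor of mTORC1, from 38.7 to 98.0 with 58.1. Asns, a standard ATF4 target, was 321.3 and 385.1 and Trib3 17.6 and 17.3. Over 20 amino acid transporters 4 rose and 4 fell, the rises including Slc38a4, from 34.2 to 73.6 with 42.0 in untreated cells.

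Several targets of p53 rose, while p53 mRNA was nearly level between NTC and shGldc. p53 activates genes of cell cycle arrest, repair and apoptosis. Trp53 was 475.8 in NTC, 487.0 in shGldc and 289.5 in untreated cells. Of 27 members used 8 rose and none fell, with a median of 0.82, and of the 26 with an FPKM of at least 1 in NTC 7 rose. Of the 16 targets used 15 were above NTC by some amount, against 52.8% of all genes used. Phlda3, an inhibitor of Akt, had 117.8, 380.3 and 85.4. Ccng1 had 22.4, 49.4 and 25.7 and Plk2, a kinase, 12.6, 30.1 and 13.6. In these the control libraries lay together below shGldc. Perp had 5.95, 15.5 and 11.8, and Btg2, an antiproliferative gene, 9.31, 22 and 14. Of the Cdk inhibitors none passed the threshold: Cdkn1a (p21) was 72.9, 116.0 and 46.6, Cdkn2a 31.7, 36.0 and 30.6, and Cdkn2b 2.71, 4.85 and 5.11.

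Secreted senescence factors showed no common direction. Of 22 used, 5 rose and 3 fell, and of the 19 with an FPKM of at least 1 in NTC 2 rose and 3 fell. The median was 0.03 against NTC and -0.86 against untreated cells. Il6, Il1a and Cxcl1 were listed at 0 in NTC and shGldc. Gdf15, a stress cytokine and p53 target, had 6.56, 14.7 and 12.1. Mmp2, a matrix protease, fell from 9.34 to 2.38 with 15.9 in untreated cells and Tgfb1 from 12.4 to 3.37 with 13.6. None of 20 G1 and proliferation genes rose or fell, but 16 were below NTC by some amount, against 47.2% of all genes used, with a median of -0.17. Ccnd1 was 43.8 and 26.1, Pcna 253.7 and 198.9, and Mki67, the only one of 12 S to M genes above NTC, 5.64 and 5.96. In the Myc network 2 of 10 rose, 1 of them among the 9 with an FPKM of at least 1 in NTC, and 1 fell, Myc, from 19.1 to 8.3 with 2.11 in untreated cells.

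No writer or eraser of histone H3 lysine 4 methylation rose or fell. This mark lies at active promoters and its writers draw on one-carbon metabolism through S-adenosylmethionine. The 21 writers, shared subunits and erasers had a median of -0.14. Setd1a was 25.6 and 26.7 and Wdr5 101.5 and 86.5, and the largest difference was in Setd1b, at 2.79 and 4.47. Polycomb, the repressor of Hox genes, had 2 rises and 1 fall among 27 members, and 1 of each among the 26 with an FPKM of at least 1 in NTC: Ezh2 was 41.2 and 35.2, Rnf2 15.2 and 11.9, Phf19 fell from 3.67 to 1.11 with 5.52 in untreated cells, and Bmi1 and Cbx8 rose from 0.526 to 1.69 and from 3.57 to 7.39. Of the DNA methylation genes 1 of 9 rose, Tdg, and 1 fell, Tet1, from 6.86 to 2.96 with 7.71 in untreated cells. Dnmt1 was 91.7 and 74.6.

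Replication-dependent histone genes were higher by number and nearly level by sum. Their mRNAs carry no poly(A) tail, so their level in a library depends on how RNA was selected. Of 54 used, 35 rose and 1 fell, with a median of 1.31, and of the 34 with an FPKM of at least 1 in NTC 17 rose, while their summed FPKM was 1459.1 in NTC, 1540.5 in shGldc and 2021.9 in untreated cells. The abundant H2A gene Hist1h2ap was 517.3 and 517.4, though 93.1% of its stretches recur in other genes, and the rises were in weakly listed genes such as Hist1h4c, from 0.878 to 6.0 with 0.576. Small RNA genes, which such libraries measure poorly, gave 47 rises and 28 falls among 130 entries, but of the 95 with an FPKM of at least 1 in NTC 13 rose and 28 fell. The largest fall of all entries was Mir8114, from 41.3 to 0.0443 with 31.3 in untreated cells, an entry lying wholly inside exons of other genes, Glul among them. The part of RNA selection in either pattern was not tested.

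Of the remaining lists, those of large complexes held few changes. Of 86 cytosolic ribosomal protein genes 1 rose and 2 fell, of 74 mitochondrial ones and of 24 cholesterol synthesis genes none did, and of 37 proteasome genes 1 fell, with medians between 0.07 and 0.16. None of 12 alpha-ketoglutarate and glutamate enzymes moved 2-fold. Of 25 glutathione and NRF2 genes 5 rose, among them Gsto1, from 38.5 to 126.7 with 38 in untreated cells, and Hmox1, from 87.2 to 181.5 with 56.4, and 2 fell. Of the 23 with an FPKM of at least 1 in NTC 4 rose. Of 11 interferon-stimulated genes 3 rose and 4 fell, among them Bst2, from 108.3 to 29.1 with 200.9, and Ddx58, a sensor of double-stranded RNA, from 8.85 to 1.87 with 3.97. Of 9 immediate early genes 3 rose and none fell, with a median of -0.09, and of the 7 with an FPKM of at least 1 in NTC 1 rose. Of 14 collagen chains 4 rose and 3 fell, and of the 12 with an FPKM of at least 1 in NTC 3 rose and 3 fell. Of 19 integrin and laminin chains 1 rose and 4 fell, of 7 contractile genes 4 rose and none fell (3 of the 6 with an FPKM of at least 1 in NTC), and of 8 genes of the Lin28 and let-7 list 1 rose, Hmga2, from 8.85 to 25 with 2.43 in untreated cells, and 1 fell. The contractile median was 1.15 against NTC and -1.7 against untreated cells. Of the Y-linked genes Ddx3y was 2.18 and 4.53 and Eif2s3y 3.77 and 5.93.

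Fibroblast and macrophage markers were low in NTC and shGldc, whereas the endoderm and trophoblast marker sums given above were higher in shGldc. The 12 fibroblast markers summed to an FPKM of 13.5 in NTC, 7.11 in shGldc and 62.7 in untreated cells, with 5 of them at 0 in both compared libraries, so untreated cells differ from both in this respect. Of the 5 fibroblast markers used 2 fell, Col1a1, from 1.24 to 0.125, and Thy1, from 6.95 to 1.11. Acta2, listed at 0 in NTC and 0.0541 in shGldc, was 19.3 in untreated cells. Macrophage markers summed to 14.5 and 14.1, nearly all Cd68. The 5 neural markers summed to 5.7 in NTC, 6.41 in shGldc and 15.0 in untreated cells, and the 5 mesoderm markers to 14.4, 16.7 and 6.85. The 6 ES cell markers summed to 3486.0 in NTC, 3310.4 in shGldc and 5958.8 in untreated cells. Of them Pou5f1, Sox2, Nanog, Zfp42 and Esrrb were each lower in shGldc than in NTC. Among these named markers only Nanog was higher in untreated cells than in NTC, at 263.2 against 249.5. Dppa5a, the remaining marker, thus carries the higher sum of untreated cells and keeps the shGldc sum near that of NTC. By chromosome, leaving out Y with 2 genes, medians of the genes with an FPKM of at least 5 ran from -0.07 (chromosome 15) to 0.2 (chromosome 11, which holds HoxB), with 0.11 on the X chromosome.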

How the data were processed

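FPKM per gene were deposited by the authors in 2 tables, one holding NTC and shGldc, the other the remaining libraries. The submitters' notes name TopHat2 2.1.0, StringTie 1.3.4d, SAMtools 1.7 and the builds mm9 and mm10, with no order given; the tables are in the ballgown format. No counts were used here. Depth is not stated. Low FPKM of single-transcript genes clustered weakly at multiples of a step (42 of 315 values in NTC, within 1.5%), which would put depth near 29200000 (NTC), 28800000 (shGldc) and 24500000 (untreated) fragments, uncertain by a factor of 2. Log2((shGldc + 0.1)/(NTC + 0.1)) was computed for genes reaching an FPKM of 1, with Python 3.11.15, pandas 2.3.3, numpy 2.4.6 and matplotlib 3.10.9, and tested on simulated data. Symbols were matched to GENCODE M21 for position, exon overlap and 50-nt stretches shared with other genes (23376 of 24421 matched). No value of one table was tested against the other.

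The genes and the 49 gene lists were chosen with earlier results of these data known. Named were Gldc, the 15 largest rises and falls among protein-coding genes with an FPKM of at least 5 and under 25% shared stretches, key, largest and extreme members of lists, and genes at the threshold; other list members and the neighbours of Gldc were named after their values were seen. Alternatives were the pseudocount, the filter, rescaling, centring, the control library, a 4-fold threshold and lists without overlapping or shared members. Some genes of these lists are not reported here.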

Additional observations from a re-analysis of the deposited data

How the results depend on the processing

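The difference in Gldc kept its direction under every alternative run. Against 1074 rises and 919 falls, a pseudocount of 1 gave 654 and 538, an FPKM of at least 5 gave 475 and 322, no filter 1996 and 1842, and a 4-fold threshold 361 and 278; with untreated cells as the control 1210 genes rose and 1696 fell, so that falls outnumbered rises. Rescaling to equal sums, centring and a pseudocount of 0.01 moved none of the 47 list medians by more than the spread between the control libraries (0.59). A pseudocount of 1 gave medians of 2.19 (2-cell-like), 1.51 (Hox) and 1.05 (retinoic acid). The filter of 5 gave 0.04 (trophoblast), 6.04 (Hox), 2.05 (germline) and 1.07 (collagens), and no filter 2.44 (Hox). Without overlapping or shared members medians were 2.57 (2-cell-like), 0.36 (endoderm), 1.26 (retinoic acid), 0.32 (contractile), 0.69 (immediate early) and, turned, -0.26 (trophoblast). With untreated cells as the control they were 1.36 (2-cell-like), 2.34 (streak and caudal), 2.15 (Hox), -0.96 (collagens), -3.4 (fibroblast markers) and -1.05 (interferon). The same control changed the sign of the medians of trophoblast (0.67 to -0.46), epithelial and mesenchymal (0.77 to -0.02), contractile (1.15 to -1.7), germline (0.49 to -0.57), glutathione (0.26 to -0.36), cholesterol (0.14 to -0.52), senescence factor (0.03 to -0.86) and Myc network genes (-0.12 to 0.74), and those of 11 further lists, each moving by less than 0.59. Of 245 named genes with an FPKM of at least 5, the same control left 117 within 0.59 of their value and moved 112 by more without turning a called direction. It turned 16 that were at least 2-fold from NTC: Tdh 0.13, Ctgf -0.47, Gbx2 0.7, Etv4 0.08, Olig2 0.02, Ascl2 1.03, Id1 0.75, Lefty1 -0.14, Spry4 0.18, Myc 1.93, Col9a2 -0.21, Cldn7 -0.84, Cldn6 -0.46, Tagln -1.84, Cald1 -0.08 and Mir5625 0.18. Named genes under an FPKM of 5, and those named after their values were seen, were not followed. Some of these turned as well, among them Fgfr2, Col5a2, Fos and Crabp2. For each change the cause was not tested. No paired analysis was possible because there is 1 library per condition and no test. Depth limits genes of low FPKM, and where 1 of the libraries is near 0 the pseudocount sets much of the ratio.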
